A study of Rattus norvegicus with 8 samples.

Results

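Genes that export sodium and calcium across the plasma membrane were examined in saphenous arteries, muscular arteries of the rat hind limb. They were the sodium pump beta subunits Atp1b1, Atp1b2 and Atp1b3, the pump regulator Fxyd1, the sodium-calcium exchanger Slc8a1 and the plasma membrane calcium pumps Atp2b1 and Atp2b4. The 7 genes were picked by symbol, and all 7 were found among the 19239 genes on the array, each as 1 probe set. Messenger RNA had been measured on 8 arrays from untreated male Wistar rats with no genetic change named in the labels. The 4 adult samples came from rats of 2 to 3 months and each held the 2 arteries of 1 animal. The 4 young samples came from rats of 10 to 12 days and each held 4 arteries pooled from 2 animals, so the spread between young samples is that of pools. RNA came from the whole artery, so a lower level in fewer cells and a lower level per cell cannot be told apart.

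The sodium pump moves sodium out of the cell and potassium into it, using ATP, and so builds the gradients that set the membrane potential. A catalytic alpha subunit does the transport, a beta subunit brings it to the membrane, and small FXYD proteins adjust its affinity for ions. The sodium-calcium exchanger uses the sodium gradient to carry calcium out of the cell, and can run in reverse when sodium accumulates inside. The plasma membrane calcium pump drives calcium out with ATP and is stimulated by calmodulin. In vascular smooth muscle these proteins help to set the calcium level on which contraction depends.

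Of the 7 genes, 4 rose with age, 0 fell and 3 did not pass the test (limma fitted over all genes, Benjamini-Hochberg adjusted p below 0.01, two-sided). Among all genes 32.7% were called, 16.7% as higher and 16% as lower in adult arteries. At an unadjusted p below 0.05, 4 of the 7 were higher and 1, Atp2b1, was lower, and the one-way test per gene of the study's methods also called 4 higher and 0 lower. The median adult minus young difference was 0.33 on the log2 scale for the 7 genes and 0.00 for all genes. All arrays held the same sorted values, so a shift of all genes could not show in the second value. Without regard to sign, the median size was 0.34 for the 7 genes, 0.06 for all genes and 0.31 for all called genes. In 5 of the 7 genes the age groups did not overlap, which was the case in 46% of all genes. The rise was largest in Atp1b1 and Atp1b2, whereas Atp1b3 and Fxyd1 had overlapping groups.

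**Figure D1:**
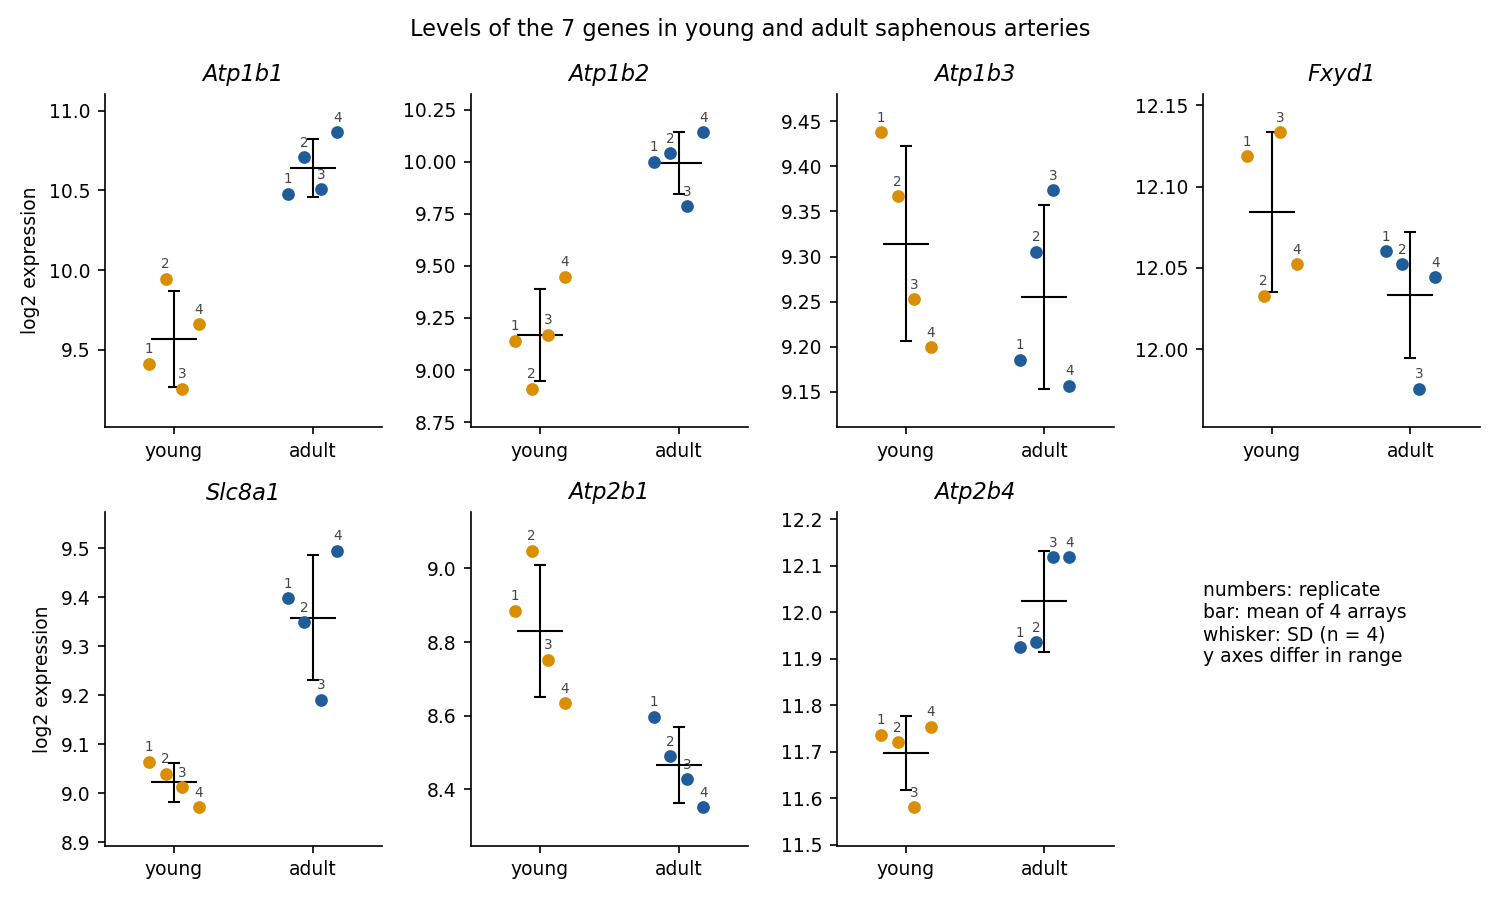
Log2 expression of the 7 genes in each array, with young arteries in orange and adult arteries in blue. Points are single arrays numbered by replicate, the horizontal bar is the mean and the whisker the SD (n = 4). The adult points lie above all young points for Atp1b1, Atp1b2, Slc8a1 and Atp2b4 and below them for Atp2b1.

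Before the single genes, the make-up of the samples is described. The 5 matched smooth muscle markers all rose with age, and their mean log2 level ranged from 12.53 to 12.60 in adult and from 11.88 to 11.99 in young arteries, above the table's upper quartile of 8.07 in both groups. Of 5 endothelial markers 2 fell and 0 rose, with a list mean of 8.22 to 8.73 in adult and 9.35 to 9.98 in young samples. Of 10 skeletal muscle markers 1 fell and 0 rose, with a list mean of 7.71 to 7.91 in adult and 7.74 to 8.57 in young samples. Of 7 Schwann cell and nerve markers 2 fell and 0 rose, with a list mean of 7.86 to 7.89 in adult and 8.20 to 8.33 in young samples. At an unadjusted p below 0.05 the numbers lower in adult arteries were 5, 6 and 5 in these 3 lists, with 1 nerve marker higher. The rerun one-way test called 2, 1 and 2 lower. Of 5 macrophage markers 4 rose (7.92 to 8.23 in adult, 7.43 to 7.57 in young samples). The 6 fibroblast markers (2 rose, 3 fell), 4 erythrocyte markers and 6 adipocyte markers (0 called in either, by limma or by the one-way test) made up the other lists. In the last 2 lists 1 erythrocyte marker was higher and 2 were lower, and 1 adipocyte marker was lower, at an unadjusted p below 0.05. Young replicate 4 had the lowest endothelial mean of the young samples (9.35), and young replicate 2 had the lowest skeletal muscle mean (7.74) and the highest adipocyte mean (7.45). The part of these shifts in the results below was not tested.

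**Figure D2:**
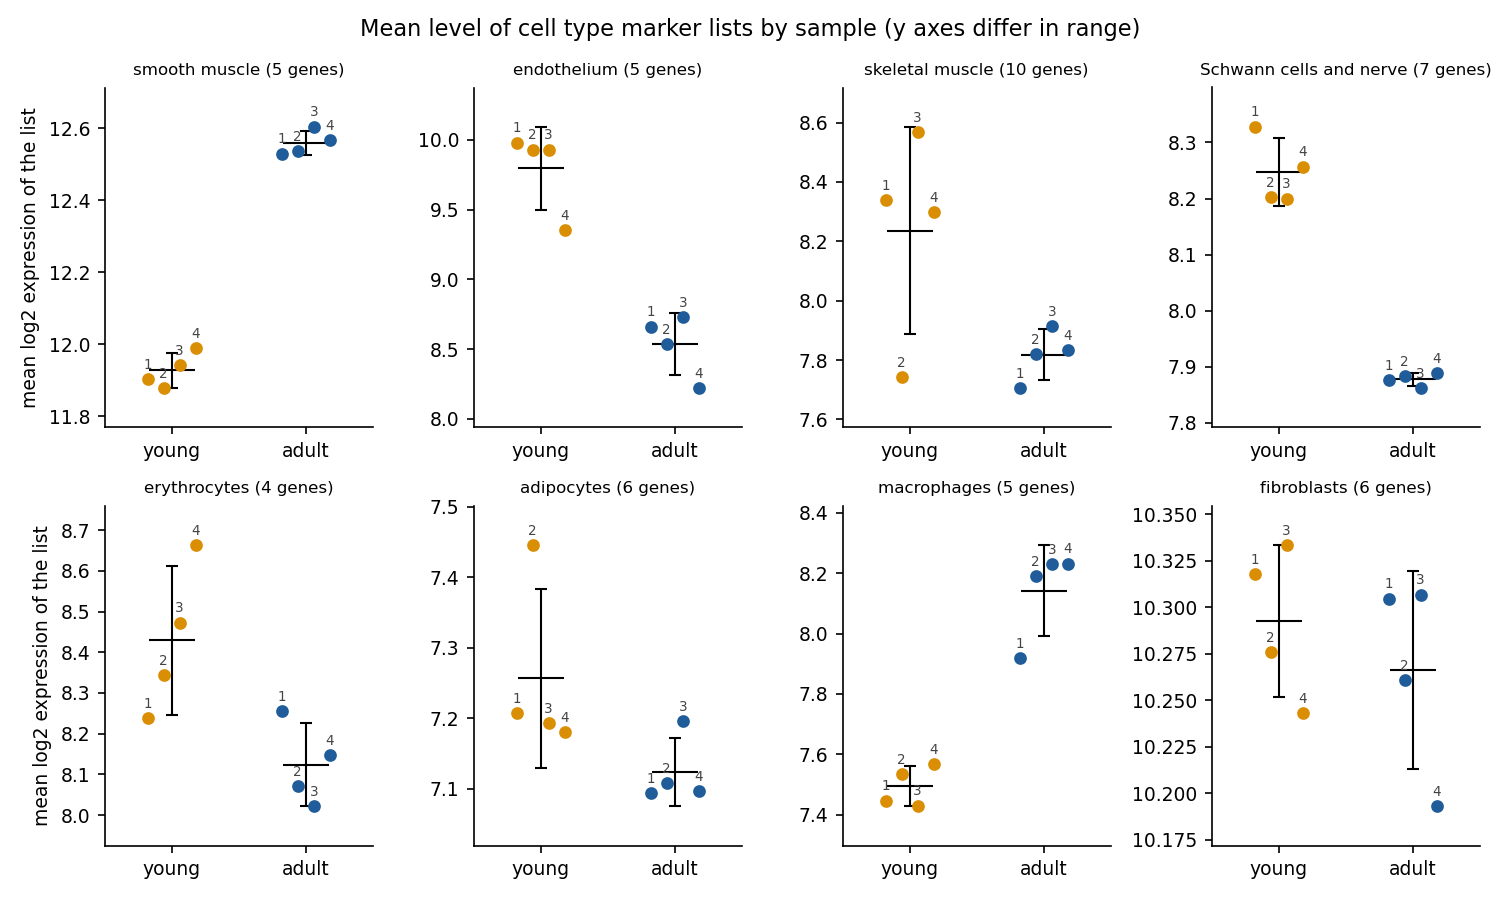
Mean log2 expression of 8 cell type marker lists in each array, with young arteries in orange and adult arteries in blue, the mean as a bar and the SD as a whisker (n = 4). Smooth muscle and macrophage lists are higher in every adult sample, and endothelial and nerve lists are higher in every young sample.

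The beta subunits of the sodium pump did not move together. Atp1b1 (Entrez Gene 25650) encodes the beta subunit that most tissues use. Its log2 level was 10.48, 10.71, 10.51 and 10.87 in adult replicates 1 to 4 and 9.41, 9.95, 9.26 and 9.66 in young replicates 1 to 4. Every adult value was above every young value, and young replicate 2 came closest to the adult group. The means were 10.64 ± 0.18 in adult and 9.57 ± 0.30 in young arteries (SD, n = 4 each). The difference of 1.07 ± 0.16 (SE) was a 2.10-fold higher level in adult arteries (95% interval 1.61 to 2.73, limma adjusted p = 0.00134), which held with any 1 array left out (0.97 to 1.20, adjusted p 0.000774 to 0.00546).

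Atp1b2 (Entrez Gene 24214) encodes a beta subunit that is also known as an adhesion molecule on glia. Its log2 level was 10.00, 10.04, 9.79 and 10.14 in adult replicates 1 to 4 and 9.14, 8.91, 9.17 and 9.45 in young replicates 1 to 4. The groups did not overlap, and the young sample nearest to the adult group was replicate 4 here. The mean was 9.99 ± 0.15 in adult and 9.17 ± 0.22 in young arteries (SD, n = 4 each). The difference was 0.83 ± 0.12 (SE), or 1.77-fold with an interval of 1.45 to 2.16 (limma adjusted p = 0.0012). With 1 array left out it lay between 0.74 and 0.92 (adjusted p 0.000644 to 0.0051). The mean of the Schwann cell and nerve list was lower in every adult sample. Of its 7 genes 2 were called lower, Pmp22 (-1.02) and Ncam1 (-1.14), and 0 higher. At an unadjusted p below 0.05, 5 were lower and 1 higher. The uncalled genes among those 5 differed less, Mbp by -0.27, Mag by -0.10 and Prx by -0.13. The genes outside those 5 were Sox10 (-0.00, adjusted p = 0.956) and S100b (0.09, adjusted p = 0.0147). The part of this list in Atp1b2 was not tested. All 5 smooth muscle markers rose, with a median difference of 0.40, and their part in Atp1b1 and Atp1b2 was not tested either.

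Atp1b3 (Entrez Gene 25390) encodes the third beta isoform, which is widely expressed. Its log2 level was 9.19, 9.31, 9.37 and 9.16 in adult replicates 1 to 4 and 9.44, 9.37, 9.25 and 9.20 in young replicates 1 to 4. The groups overlapped. The difference of -0.06 ± 0.068 (SE) did not pass the test (limma adjusted p = 0.524), and its 95% interval ran from -0.22 to 0.10, so a change as large as that of the other isoforms lay outside it.

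Whether the isoforms changed unequally was tested on the difference between a pair of genes within each array, an approach that compares changes and not the levels of separate probe sets. Atp1b1 minus Atp1b3 was 1.29, 1.40, 1.13 and 1.71 in adult replicates 1 to 4 and -0.02, 0.58, 0.00 and 0.46 in young replicates 1 to 4. The groups lay apart, and the ratio of Atp1b1 to Atp1b3 was 2.19-fold higher in adult arteries (1.13 ± 0.20 SE on the log2 scale, exact permutation p = 0.0286, adjusted over 4 pairs p = 0.0381, two-sided, n = 4 each). Atp1b2 minus Atp1b3 also lay apart, from 0.41 to 0.99 in adult and from -0.46 to 0.25 in young samples, with a shift of 0.88 ± 0.19 SE (exact permutation p = 0.0286, adjusted p = 0.0381). Atp1b1 minus Atp1b2 overlapped between the ages (0.48 to 0.72 in adult and 0.09 to 1.04 in young samples), with a shift of 0.24 ± 0.22 SE that did not pass (exact permutation p = 0.314, adjusted p = 0.314). It was 0.46 without young replicate 2 (exact permutation p = 0.0571, the smallest that 3 against 4 samples can give) and 0.14 without young replicate 3. In that pair young replicate 2 (1.04) was above every other sample, and it had the highest Atp1b1 and the lowest Atp1b2 value of its group. The value 0.0286 is the smallest p that 4 against 4 samples can give, and with 1 array left out the design cannot go below 0.0571. Pairs were therefore judged at an adjusted p below 0.05, and none could have passed the 0.01 used for single genes.

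**Figure D3:**
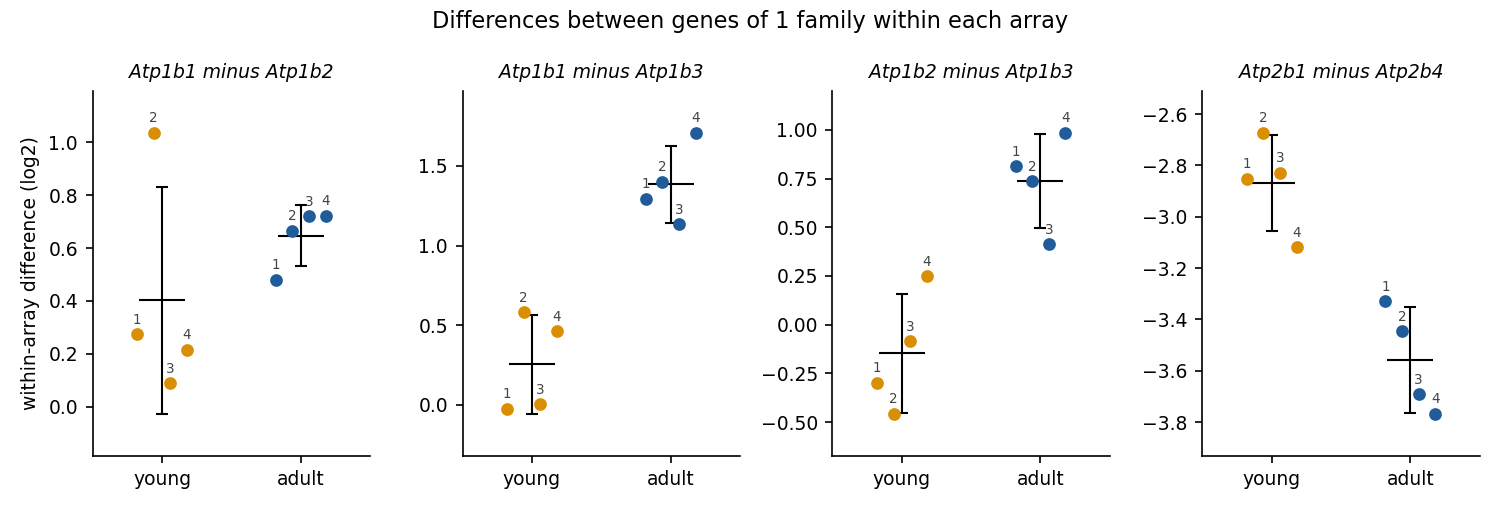
Difference in log2 expression between a pair of genes of the same family within each array, for 3 pairs of pump beta subunits and for the calcium pumps. Points are arrays numbered by replicate (young orange, adult blue), the bar is the mean and the whisker the SD (n = 4). Groups are apart in 3 pairs and overlap for Atp1b1 minus Atp1b2.

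Fxyd1 (Entrez Gene 58971) encodes phospholemman, the regulator through which phosphorylation acts on the sodium pump in heart and muscle. Its log2 level was 12.06, 12.05, 11.98 and 12.04 in adult replicates 1 to 4 and 12.12, 12.03, 12.13 and 12.05 in young replicates 1 to 4. All 8 values lay within 0.16 of each other and the groups overlapped. The difference of -0.05 ± 0.029 (SE) did not pass the test (limma adjusted p = 0.202), with an interval from -0.12 to 0.02. Skeletal muscle, which also expresses this gene, had higher marker levels in young replicates 1, 3 and 4 than in any adult sample, and its part in the Fxyd1 values was not tested.

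Slc8a1 (Entrez Gene 29715), the sodium-calcium exchanger of heart and smooth muscle, rose with age. Its log2 level was 9.40, 9.35, 9.19 and 9.50 in adult replicates 1 to 4 and 9.06, 9.04, 9.01 and 8.97 in young replicates 1 to 4. The young samples lay close together (SD 0.040) and the adult samples were more spread (SD 0.13), with adult replicate 3 nearest to the young group. The difference of 0.34 ± 0.061 (SE) was a 1.26-fold higher level (95% interval 1.14 to 1.39, limma adjusted p = 0.00335). It no longer passed without adult replicate 1 (0.32, adjusted p = 0.0107) or adult replicate 2 (0.34, adjusted p = 0.0105). The same held without young replicate 3 (0.33, adjusted p = 0.0116) or young replicate 4 (0.32, adjusted p = 0.0108), while the direction held in all of these. All 5 smooth muscle markers rose as well, with a median difference of 0.40, and their part in Slc8a1 was not tested.

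The calcium pumps Atp2b1 and Atp2b4 pointed in opposite directions. Atp2b4 (Entrez Gene 29600), an isoform that is abundant in smooth muscle and in red cells, had log2 levels of 11.93, 11.94, 12.12 and 12.12 in adult replicates 1 to 4 and 11.74, 11.72, 11.58 and 11.75 in young replicates 1 to 4. The adult samples were all higher, and the difference of 0.33 ± 0.062 (SE) was 1.25-fold (95% interval 1.13 to 1.39, limma adjusted p = 0.00407). It no longer passed without adult replicate 3 or adult replicate 4 (0.29 and adjusted p = 0.0118 in each case), young replicate 1 (0.34, adjusted p = 0.0106) or young replicate 2 (0.33, adjusted p = 0.0111). All 5 smooth muscle markers rose too, with a median difference of 0.40 and list means of 12.53 to 12.60 in adult and 11.88 to 11.99 in young samples. The erythrocyte markers had a mean of 8.02 to 8.25 in adult and 8.24 to 8.66 in young samples, so these ranges overlapped. The part of either list in Atp2b4 was not tested.

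Atp2b1 (Entrez Gene 29598), the calcium pump isoform found in nearly all cells, had log2 levels of 8.60, 8.49, 8.43 and 8.35 in adult replicates 1 to 4 and 8.89, 9.05, 8.75 and 8.63 in young replicates 1 to 4. Every adult value was below every young value, with adult replicate 1 and young replicate 4 closest to the other group. The difference of -0.36 ± 0.094 (SE) was a ratio of 0.777 (95% interval 0.666 to 0.907) and did not pass the threshold (limma adjusted p = 0.0164). With 1 array left out the difference lay between -0.43 and -0.29 (limma adjusted p 0.00771 to 0.046). It passed in 1 of these 8 fits, the one without young replicate 4 (-0.43, adjusted p = 0.00771). Without adult replicate 1 and young replicate 4 together it was -0.47 (adjusted p = 0.00765). Leaving out the samples closest to the other group enlarges a difference by construction. The mean of the endothelial list was lower in every adult sample and, within the young group, lowest in the same replicate 4, although 2 of its 5 genes overlapped between the ages, and its part in the Atp2b1 values was not tested.

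Within each array, Atp2b1 minus Atp2b4 was -3.33, -3.45, -3.69 and -3.77 in adult replicates 1 to 4 and -2.85, -2.67, -2.83 and -3.12 in young replicates 1 to 4. The groups were apart, and the ratio of Atp2b1 to Atp2b4 in adult arteries was 0.620 of that in young arteries (-0.69 ± 0.14 SE on the log2 scale, exact permutation p = 0.0286, adjusted over 4 pairs p = 0.0381, two-sided, n = 4 each). The 2 isoforms therefore changed unequally with age at the threshold of 0.05 used for pairs, which is looser than the 0.01 for single genes. By itself only Atp2b4 passed, and Atp2b1 (limma adjusted p = 0.0164) did not pass at 0.01.

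Promoter sequences are shown for the paralogs that changed unequally at the threshold for pairs, Atp1b2 beside Atp1b3 and Atp2b4 beside Atp2b1. They are the 250 bases before the annotated start of each gene in RefSeq on GRCr8, which gave a promoter for 6 of the 7 genes, all but Atp1b1. The array files name no genome build, and these positions are those of RefSeq. Capitals mark the GC box GGGCGG on either strand, and each sequence runs in the direction of its gene.
Atp1b2 (chr10:54823709-54823958, minus strand): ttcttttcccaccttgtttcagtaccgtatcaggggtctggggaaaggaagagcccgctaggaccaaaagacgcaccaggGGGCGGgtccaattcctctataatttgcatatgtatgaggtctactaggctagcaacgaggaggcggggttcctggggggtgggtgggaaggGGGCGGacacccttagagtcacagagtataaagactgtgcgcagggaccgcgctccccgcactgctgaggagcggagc
Atp1b3 (chr8:105821152-105821401, minus strand): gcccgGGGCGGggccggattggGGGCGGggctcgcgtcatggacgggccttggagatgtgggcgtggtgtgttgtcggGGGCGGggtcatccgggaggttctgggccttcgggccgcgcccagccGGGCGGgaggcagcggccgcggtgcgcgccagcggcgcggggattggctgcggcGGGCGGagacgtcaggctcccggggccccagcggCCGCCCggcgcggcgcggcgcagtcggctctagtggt
Atp2b4 (chr13:47758877-47759126, minus strand): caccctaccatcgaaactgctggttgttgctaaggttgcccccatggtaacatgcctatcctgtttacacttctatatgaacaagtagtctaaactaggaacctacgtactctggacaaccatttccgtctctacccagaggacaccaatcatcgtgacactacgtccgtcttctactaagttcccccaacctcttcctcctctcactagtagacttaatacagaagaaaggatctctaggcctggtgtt
Atp2b1 (chr7:35622211-35622460, plus strand): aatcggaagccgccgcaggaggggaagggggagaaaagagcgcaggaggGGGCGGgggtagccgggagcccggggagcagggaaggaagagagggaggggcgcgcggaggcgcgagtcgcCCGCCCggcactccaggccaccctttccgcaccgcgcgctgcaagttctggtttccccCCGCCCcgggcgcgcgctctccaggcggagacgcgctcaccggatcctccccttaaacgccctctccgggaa

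The GC box occurred 2 times before Atp1b2 and 6 times before Atp1b3, 0 times before Atp2b4 and 3 times before Atp2b1. It was present in 4 of the 6 promoters, Fxyd1 being the other one, and in 30.5% of 33469 promoters of the same length. The share of G and C was 58% for Atp1b2 and 79.6% for Atp1b3, and 46.4% for Atp2b4 and 72.8% for Atp2b1, beside a median of 51.2% over all promoters. It was 35.2% for Slc8a1 and 66.8% for Fxyd1. In each pair shown the isoform that rose had the lower G and C share and fewer GC boxes, which is a description of 2 pairs only. Atp1b1, the beta subunit gene with the larger rise, had no promoter to set beside them. Other motifs were searched on both strands, and their matches can share letters with each other or with the GC box. The E box CANNTG was found before Atp1b2, Fxyd1 and Slc8a1 (3 of 6, 65.5% of all promoters), and TATAAA before Atp1b2 (1 of 6, 12.9% of all). TGACGT was found before Atp1b3 (1 of 6, 6.95% of all), and AGATAA (10.3% of all) and the CArG box (1.5% of all) had no match in these windows.

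The other genes of sodium and calcium transport were taken from a list of 44 symbols, of which 36 were matched to the array. Of these 36, 10 rose, 8 fell and 18 did not pass, with a median difference of 0.01. As many as 13 had all 8 values below the table's median of 7.29, and the 4 of those 13 that were called had differences of 0.06 or less in size after rounding. Where subtracting the table's lowest intensity before the log2 step moved a called value by over 1.5 times, the value under that scaling is given too. With 1 array left out at a time, 11 of the 18 calls held in every case. Changes of these genes are given as log2 differences ± SE (adult minus young) with the adjusted p from limma.

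**Figure D4:**
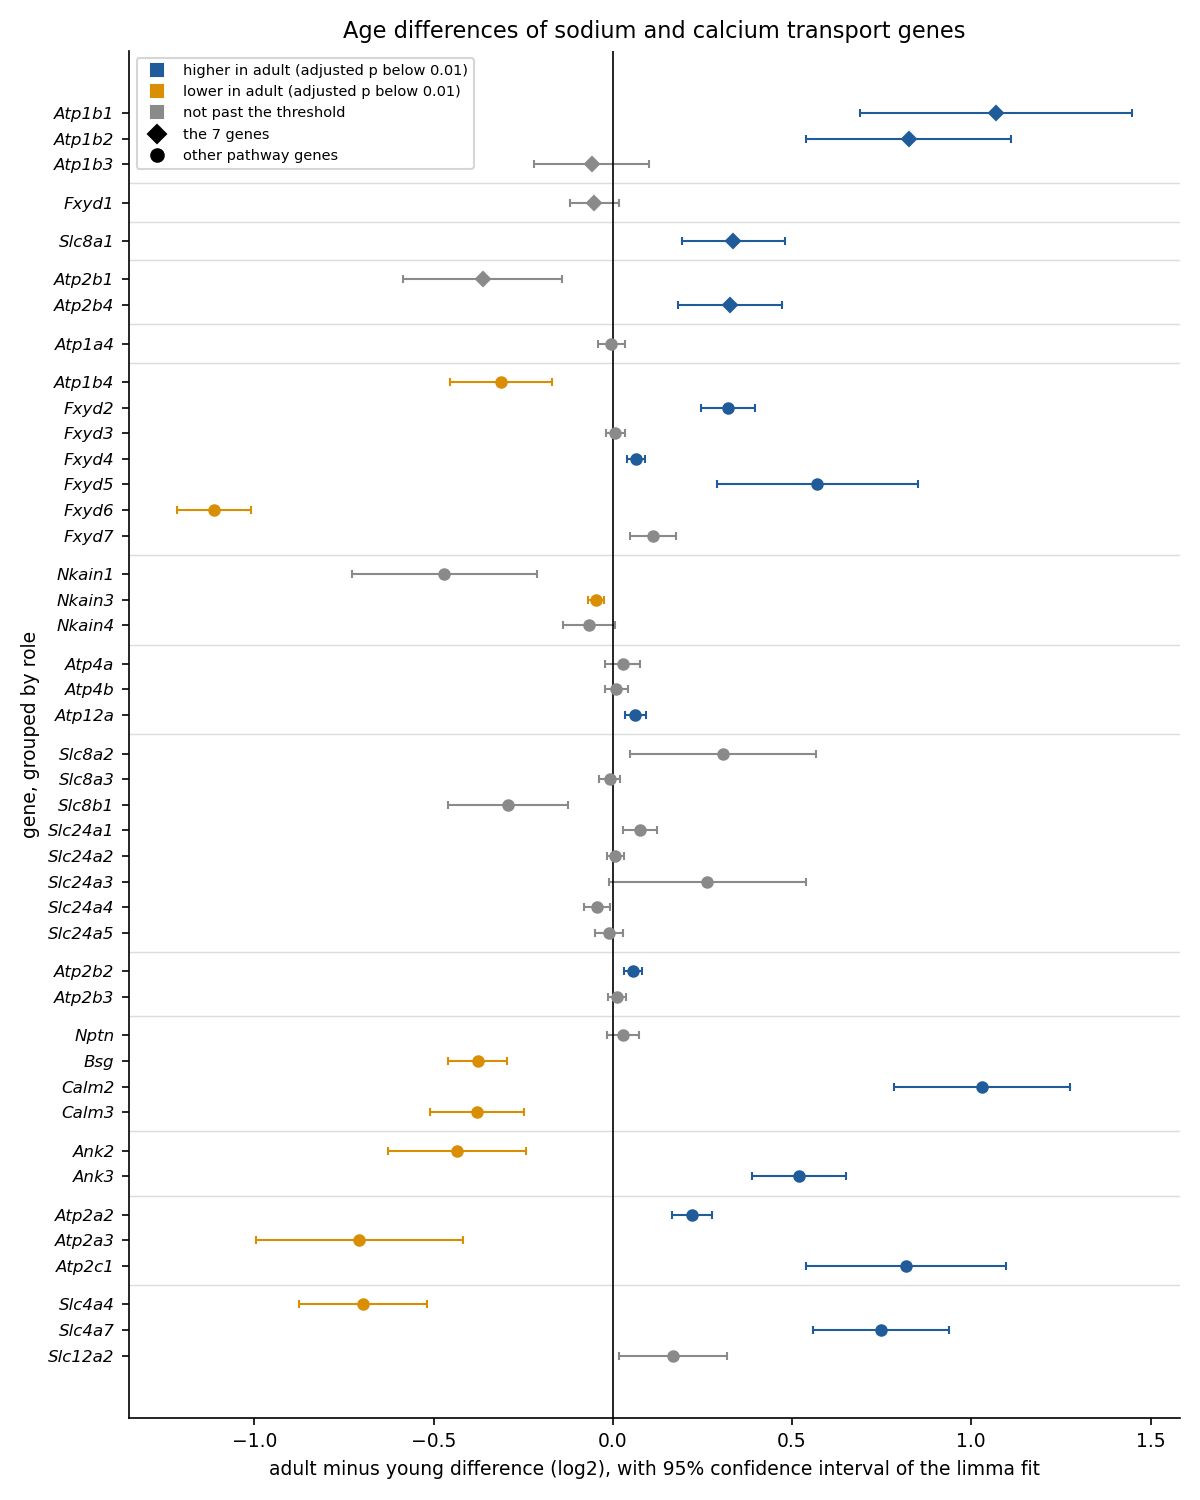
Adult minus young difference in log2 expression (x axis) with its 95% confidence interval from limma (n = 4 arrays per age) for the 7 genes (diamonds) and 36 other transport genes (circles), grouped by role. Blue marks genes higher and orange genes lower in adult arteries at an adjusted p below 0.01. Atp1b1 lies farthest to the right and Fxyd6 farthest to the left.

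Among the partners of the sodium pump, 1 of the 4 catalytic alpha subunit genes was matched, the testis isoform Atp1a4, which lay between 7.04 and 7.10 in all samples. The FXYD family went both ways. Fxyd6 fell from 8.15 to 8.34 in young samples to 7.12 to 7.20 in adult samples (-1.11 ± 0.044, adjusted p = 3.77e-06), so the adult values were below the table's median, and the difference was -2.17 with the lowest intensity subtracted. Fxyd5, known as dysadherin and as a regulator of cell adhesion, rose from a range of 7.97 to 8.23 to one of 8.35 to 8.89 (0.57 ± 0.12, adjusted p = 0.00631), a call that was lost in 7 of 8 fits without 1 array (adjusted p 0.012 to 0.02). The exception was the fit without adult replicate 4, the lowest adult sample (0.68, adjusted p = 0.00083). Fxyd2, the gamma subunit best known from kidney, rose by 0.32 ± 0.032 (adjusted p = 0.000175) to adult values of 7.34 to 7.50, or by 0.84 with the lowest intensity subtracted. Atp1b4, a muscle protein that in mammals no longer serves as a pump subunit, fell (-0.31 ± 0.060, adjusted p = 0.00448, and -0.86 with the lowest intensity subtracted). It lost its call in 5 of 8 such fits, and the skeletal muscle list mean was 7.71 to 7.91 in adult and 7.74 to 8.57 in young samples, whose part in it was not tested. Fxyd7, a brain isoform, differed by 0.11 ± 0.028 and did not pass (adjusted p = 0.0132).

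The other exchangers did not pass the test. Of 8 genes 0 were called by limma or by the one-way test, with 2 higher and 2 lower at an unadjusted p below 0.05. Slc8a2, an exchanger best known from brain, was at 8.97, 8.97, 8.93 and 9.02 in adult replicates 1 to 4 and 8.52, 8.51, 8.63 and 9.01 in young replicates 1 to 4. The last young sample lay among the adult values and the other 3 below them. The difference of 0.31 ± 0.11 (adjusted p = 0.057) became 0.42 (adjusted p = 0.000246) without that sample, whose removal enlarges it by construction. This was the only 1 of 8 fits without 1 array that passed (adjusted p up to 0.137). Slc24a3, a potassium-dependent sodium-calcium exchanger, showed the same arrangement, with young replicate 4 at 8.91, above all adult samples (8.72 to 8.88), and the other young samples at 8.38 to 8.50. Its difference was 0.26 ± 0.12 (adjusted p = 0.107), and 0.38 (adjusted p = 0.000844) without that replicate, again the only 1 of 8 such fits that passed (adjusted p up to 0.232). Slc8b1, the mitochondrial exchanger, was lower in every adult sample without passing (-0.29 ± 0.071, adjusted p = 0.0126), and passed with the lowest intensity subtracted (-0.54, adjusted p = 0.00543).

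Partners and relatives of the calcium pumps were called in both directions. Calm2, one of several genes that encode the same calmodulin protein, rose by 1.03 ± 0.10 (adjusted p = 0.000192), from 10.12 to 10.48 in young to 11.13 to 11.51 in adult samples. Calm3, another of these genes, fell (-0.38 ± 0.056, adjusted p = 0.00118). Basigin (Bsg), an auxiliary subunit of the calcium pumps, fell (-0.38 ± 0.035, adjusted p = 0.000128), and neuroplastin (Nptn), its relative with the same role, differed by 0.03 ± 0.019 (adjusted p = 0.257). Of the calcium pumps of nerve cells, Atp2b2 rose by 0.06 ± 0.011 (adjusted p = 0.00391), or by 0.19 with the lowest intensity subtracted, a call lost in 6 of 8 fits without 1 array and with ribosomal protein centring (adjusted p = 0.396), and Atp2b3 differed by 0.01 (adjusted p = 0.381), both below the table's median in all samples. The anchor protein ankyrin-G (Ank3) rose by 0.52 ± 0.056 (adjusted p = 0.000256), or by 1.00 with the lowest intensity subtracted. The relative ankyrin-B (Ank2), which holds the sodium pump and the exchanger in place in heart cells, fell (-0.43 ± 0.081, adjusted p = 0.00384, and -0.67 with the lowest intensity subtracted), a call lost in 5 of 8 fits without 1 array.

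Calcium pumps of internal stores and sodium carriers gave further values. The sarcoplasmic reticulum pump Atp2a2 rose by 0.22 ± 0.024 (adjusted p = 0.000258). The Golgi pump Atp2c1 rose by 0.82 ± 0.12 (adjusted p = 0.00111). Atp2a3, a pump found in endothelium among other cells, fell (-0.71 ± 0.12, adjusted p = 0.00266) beside the endothelial markers, whose part in it was not tested. That call was lost without young replicate 1 (-0.68, adjusted p = 0.0101) or young replicate 3 (-0.68, adjusted p = 0.01). The sodium bicarbonate cotransporters moved apart, with Slc4a7 higher by 0.75 ± 0.081 (adjusted p = 0.000264) and Slc4a4 lower (-0.70 ± 0.076, adjusted p = 0.000279). The sodium-potassium-chloride cotransporter Slc12a2 differed by 0.17 ± 0.064 (adjusted p = 0.068). Without adult replicate 1, its lowest adult sample, it differed by 0.23 (adjusted p = 0.00488), the only 1 of 8 such fits that passed (adjusted p up to 0.154).

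For each of the 7 genes, the named genes with the most similar profile were found by Pearson correlation over the 8 arrays among 16591 named genes, as a description that includes the age difference and carries no p. Atp1b2 was closest to Bcam, the basal cell adhesion molecule that binds laminin (r = 0.997, difference 0.45), and to alpha-sarcoglycan Sgca of the dystrophin complex (r = 0.993, difference 0.72). Atp1b1 was closest to Mif (r = 0.99, difference 0.40) and Ccl24 (r = 0.99, difference 0.25), and Atp2b4 to Cobl (r = 0.988, difference 0.53) and Sema4a (r = 0.984, difference 0.06). Atp2b1 was closest to Naaa (r = 0.985, difference -0.35) and Ap3b1 (r = 0.982, difference -0.39). Slc8a1 was closest to Fpr3 (r = 0.995) and Tap2 (r = 0.991), of which the first differed by only 0.02 between the ages. Atp1b3 (Rbm6 at 0.966 and Dpysl3 at 0.954) and Fxyd1 (Tbx22 at 0.96 and Ocln at 0.959), which had overlapping groups, had lower highest correlations. Among these nearest genes, Fpr3, Sema4a, Tbx22 and Ocln had means below the table's median of 7.29 at both ages.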

How the data were processed

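Total RNA was hybridised to Affymetrix Rat Gene 1.0 arrays, 1 per sample. The deposited values are log2 expression, made by the authors with RMA (version not given) and quantile normalization, with 1 probe set per Entrez gene from a custom chip definition file. All 8 columns hold the same sorted values from 6.80 to 13.82, so a shift of all genes cannot be seen, and the number of arrays limits the precision. Symbols came from the platform annotation, updated through the Entrez identifier with a GRCr8 table. Of 19239 rows, 16592 had 1 symbol, 0 had several and 2647 are unnamed here, and genes without a matched row were not analysed here.

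Groups follow the labels. A two-sided test of age used a linear model on every row (limma 3.58.1, R 4.3.3, moderated variances, no covariate), with Benjamini-Hochberg adjustment and a threshold of 0.01. Intervals are 95% intervals of that fit. Within-array differences of 4 gene pairs were compared with an exact permutation test over 70 assignments (scipy 1.17.1). Its p was adjusted over the 4 pairs by Benjamini-Hochberg, with a threshold of 0.05. The scripts were tested on simulated data. Alternatives were the methods' one-way ANOVA, trended robust variances, array weights, centring on 36 ribosomal protein genes, removal of the dimmest 25% of rows, blocks by replicate number and by sample code (below or above 20), arrays left out, a new log2 scale after taking off the table's lowest value (111) and adding 16, and a threshold of 0.05. The genes named are the 7, genes of the 44-symbol list and the 2 nearest profiles of each. The 7 genes, the lists and the alternatives were chosen with earlier results of these data known.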

Additional observations from a re-analysis of the deposited data

Results flagged for a closer look

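In 94 groups of 4 samples, 3 held a sample far from the others, where chance alone marks about 1 group in 20. Neuroplastin (Nptn) was at 11.45 in young replicate 2, and the other young samples were at 11.50 to 11.51. The calcium pump Atp2a3 was at 9.32 in the same replicate and at 9.65 to 9.69 in the other young samples. The cotransporter Slc12a2 was at 7.86 in adult replicate 1 and at 8.09 to 8.11 in the other adult samples.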

How the results depend on the processing

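Atp1b1 and Atp1b2 kept their direction and their call in all 18 alternatives (adjusted p at most 0.00774 and 0.00518), and Atp1b3 and Fxyd1 were called in none of 18. Slc8a1 kept its call in 12 of 18 and Atp2b4 in 13 of 18, always in the same direction. Among the 18, the threshold of 0.05 reads the main fit again, so it could not remove a call made at 0.01. Atp2b1 was lower in all 18 and passed in 7, namely with trended robust variances (-0.36), array weights (-0.40), ribosomal protein centring (-0.33), lowest intensity subtracted (-0.48), a threshold of 0.05 (-0.36), without adult replicate 1 and young replicate 4 together (-0.47) and without young replicate 4, so that 1 of the 7 genes counted as lower there. No result turned sign between called values. Ribosomal protein centring lowered the number of genes called lower in adult arteries from 3080 to 1896 and that called higher from 3216 to 2526, and the cause was not tested. Without 1 array, 3 of the 7 genes were called higher and 0 to 1 lower, and 7 to 11 and 4 to 8 of the other genes. Slc8a1 then ranged from 0.29 to 0.39, Atp2b1 from -0.43 to -0.29 and Atp2b4 from 0.29 to 0.36.

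Without adult replicate 1 and young replicate 4 together, Slc8a1 was 0.31 (adjusted p = 0.028), and the within-array shifts were 1.23 for Atp1b1 minus Atp1b3, 0.99 for Atp1b2 minus Atp1b3 and -0.85 for Atp2b1 minus Atp2b4. With 1 array left out these ranged from 1.02 to 1.24, 0.78 to 1.02 and -0.77 to -0.62. Their exact permutation p then cannot go below 0.0571 (0.1 without both arrays), so the lost calls of these pairs follow from the number of samples. Atp1b1 minus Atp1b2 ranged from 0.14 to 0.46 and passed in none of these.

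The labels name no pairing beyond a replicate number, and deviations of same-numbered samples correlated at -0.08, -0.03, 0.04 and 0.01. Between samples of unlike number the correlations ran from -0.29 (adult replicate 3 with young replicate 4) to 0.24 (adult replicate 3 with young replicate 2). With the replicate number as a block, 2 of the 7 genes were called higher, with Slc8a1 (0.34, adjusted p = 0.0169) and Atp2b4 (0.33, adjusted p = 0.0254) past the threshold no longer, and 6 of the other genes were higher and 5 lower. No adult sample correlated best with the young sample of its own number. After removal of the dimmest 25% of rows, 5 of the other genes had no value.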
